A study of Drosophila melanogaster with 90 samples.

Results

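Ovaries of sterile Drosophila melanogaster females carrying the sovEA42 allele over the KG00226 allele were compared with ovaries of fertile females that carry only one of these alleles. The comparison used 11 of the 90 polyA RNA-seq libraries of the series: 3 libraries of sovEA42/KG00226, 3 of sovEA42/w1118, and 5 of KG00226 over w1118, made up of KG00226/w1118 replicates 1 and 2 and of w1118/KG00226 replicates 1 to 3. KG00226/w1118 replicate 3 stood apart in its transposable element counts, as given with the element values, and was not part of the comparison. The labels write the sovEA42 chromosome as sov[EA42]. They write the insertion chromosome as y[1] P{SUPor-P}CG14438[KG00226] and the control chromosome as w[1118], and the KG00226 heterozygotes come in both orders of writing. Every heterozygote thus carried a w1118 X chromosome that the sterile genotype lacked, so a w1118 effect and a loss of sov function cannot be told apart, whether one heterozygote class or the mean of both is the reference. All females were 4 to 5 days old and raised at 25 °C, and each library came from RNA of 15 pooled ovaries, so that the tests measure the spread between pooled samples. Each allele was represented by 1 chromosome.

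The gene sov (small ovary) encodes a nuclear zinc finger protein that is known for its part in heterochromatin formation in the ovary. Heterochromatin keeps transposable elements silent, and in the ovary much of this silencing is directed by piRNAs, short RNAs bound by Piwi-clade Argonaute proteins in germline and follicle cells. Follicle cells surround each developing egg, take part in yolk protein synthesis, and then secrete the vitelline membrane and the chorion, the inner and outer layers of the eggshell, in that order. KG00226 is an insertion of the SUPor-P element, a P element that carries a yellow marker gene.

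The sum of gene counts ran from 1400954 in sovEA42/KG00226 replicate 1 to 10472286 in replicate 2, with 3547023 in replicate 3, and from 3453439 to 8534756 in the 8 heterozygote libraries. A count of 0 allowed a level of up to 0.0786 CPM over the 8 heterozygote libraries and 0.180 CPM over the 3 sterile libraries (3 counts over the group, counting error only). Levels are given as CPM, the count scaled to a common library size after TMM normalisation. Changes are log2 fold changes from edgeR's quasi-likelihood test with their standard error (SE). The Benjamini-Hochberg adjusted p was taken over all 7636 genes and element families that passed the filter on low counts. Unless stated otherwise, a change sets the 3 sterile libraries against the mean of the 2 heterozygote classes, weighted equally. Spike-in (ERCC) RNA made up 0.0331% to 0.0861% of the gene, element and spike-in counts in the sterile libraries, 0.0213% to 0.0291% in the sovEA42 heterozygotes and 0.00802% to 0.0140% in the KG00226 heterozygotes, without overlap. On a spike-in scale the median log2 change of all features was −1.38, against 0.04 after TMM scaling, so the changes below are relative to the bulk of the transcriptome of each library.

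The sov gene (FBgn0029899, X:6756322-6770712 on the forward strand) was read in every library. It stood at 169, 172 and 225 CPM in sovEA42/KG00226, at 162, 178 and 178 CPM in the sovEA42 heterozygotes and at 133, 127, 140.4, 143 and 146 CPM in the KG00226 heterozygotes. The sterile libraries overlapped the sovEA42 heterozygotes and lay above the KG00226 heterozygotes. The log2 change was 0.29 ± 0.10 (SE, edgeR adjusted p = 0.0473), but it lost this call in 13 alternative settings, among them leaving out sovEA42/KG00226 replicate 3 (0.15, adjusted p = 0.219), and it was −1.15 when libraries were scaled to the spike-ins. An exact two-sided permutation test of log2(CPM + 1), 3 libraries against 8, gave a difference of 0.32 (p = 0.0545, and 0.0545 adjusted over 3 single-value tests). Whether the transcripts of either allele encode a working protein cannot be read from these counts. The yellow gene, y, told the chromosomes apart: it stood at 5.60, 10.4 and 9.47 CPM in sovEA42/KG00226 and 11.7, 7.96, 8.17, 17.4 and 5.12 CPM in the KG00226 heterozygotes, but at 0, 0.324 and 0.284 CPM in the sovEA42 heterozygotes. All 8 libraries labelled with KG00226 lay above all 3 without it.

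Of the 7636 features, 1109 (14.5%) were higher and 564 (7.39%) were lower in sovEA42/KG00226 at an adjusted p under 0.05, and 668 (8.75%) and 223 (2.92%) of them by over 2-fold. On the spike-in scale the split was 367 higher and 6717 lower. Against each heterozygote class on its own, 690 features (9.04%) were higher and 274 (3.59%) lower in both comparisons. The heterozygote classes differed from each other in 55 features (0.72%), of which 20 were higher and 35 lower in the sovEA42 heterozygotes. In bulk ovaries, fewer cells of a type and less RNA per cell cannot be told apart, and this holds for every change below.

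Transposable elements took 0.962%, 1.03% and 2.22% of the gene and element counts in the 3 sovEA42/KG00226 libraries. The share was 0.0449% to 0.0470% in the sovEA42 heterozygotes and 0.0314% to 0.0416% in the KG00226 heterozygotes. The sterile libraries lay far above both classes, and the heterozygote classes did not overlap each other. The log2 difference between 3 sterile and 8 heterozygote libraries was 5.00 (exact two-sided permutation test, p = 0.00606, the smallest this design can give; 0.00909 adjusted over 3 tests). Per 100 spike-in counts, elements had 1117, 3110 and 3968 counts in sovEA42/KG00226, 154 to 218.1 in the sovEA42 heterozygotes and 274 to 391.7 in the KG00226 heterozygotes. This was a log2 difference of 3.21 with the same exact permutation p of 0.00606 (0.00909 adjusted). KG00226/w1118 replicate 3, the library left out, had a share of 0.451%, above all 8 heterozygote libraries used and below the sterile ones.

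**Figure D1:**
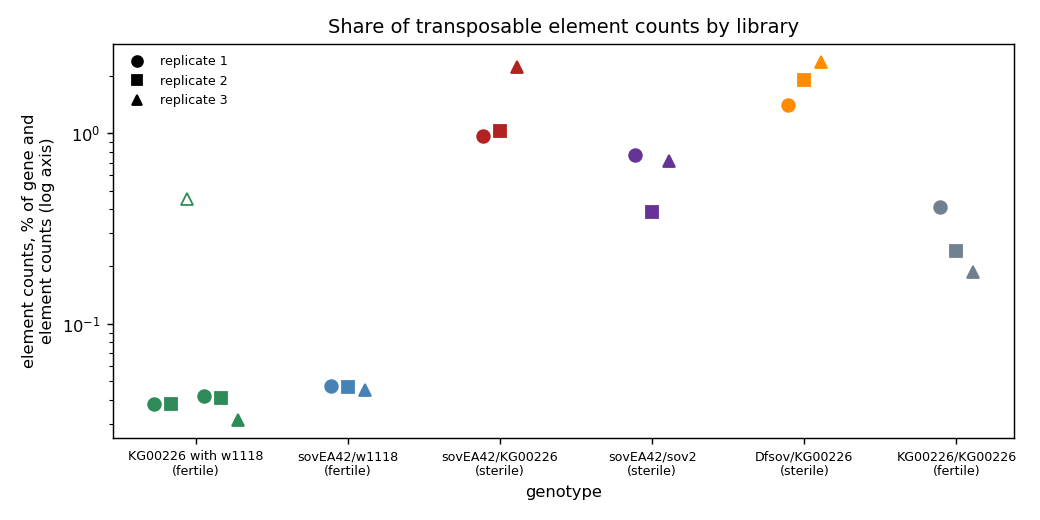
Share of transposable element counts in each library (percent of gene and element counts, log axis) for the 3 compared genotype classes and for 3 further allele pairs. The 3 sovEA42/KG00226 libraries lie between 0.962% and 2.22% and the 8 filled heterozygote points between 0.0314% and 0.0470%; the open triangle is KG00226/w1118 replicate 3, which was left out.

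Of the 147 element families in the counts, 95 passed the filter on low counts. Of these 95, 88 were higher in sovEA42/KG00226 and none was lower, against 14.5% higher and 7.39% lower over all features, and their median log2 change was 4.16 against 0.04. Many families had few counts in the heterozygotes and passed the filter through the sterile libraries, so this count describes the families with counts and not all 147. With a count minimum of 30 in place of 10, 57 families were called higher. Of these 88 families, 87 showed no overlap between sterile and heterozygote libraries, and the libraries of R1_DM overlapped (12% of all features lay higher and 5.68% lower without overlap), and 84 were higher against each heterozygote class separately.

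The telomeric retrotransposons had the largest median log2 change of the element classes, 7.53 over the 3 families tested of 4 in the counts. These elements, HeT-A, TART and TAHRE, are non-LTR retrotransposons that insert at chromosome ends and take the place of telomerase in flies. HETA had 3195, 3500.0 and 11340.0 CPM in sovEA42/KG00226, 13.4, 17.5 and 9.67 CPM in the sovEA42 heterozygotes and 36.2, 21.7, 14.6, 14.1 and 17.6 CPM in the KG00226 heterozygotes, a log2 change of 8.47 ± 0.44 (SE, edgeR adjusted p = 3.2e-08). The 3 sterile libraries lay far above all 8 heterozygotes, with replicate 3 the highest. TART rose by 7.53 ± 0.45 (SE, edgeR adjusted p = 1.12e-07) on the log2 scale, from 2.43 to 11.04 CPM in the 8 heterozygotes to 409, 416 and 1545 CPM. TAHRE rose by 6.88 ± 0.45 (SE, edgeR adjusted p = 2.55e-07), from 4.83 to 14.3 CPM to 482, 438 and 2115 CPM. Replicate 3 was again the highest library for both. The summed telomeric level was 4087, 4357 and 15011 CPM in sterile replicates 1, 2 and 3. The summed level of the Gypsy-type families was 4142, 4548 and 3599 CPM, so that the high element share of replicate 3 lay in its telomeric counts.

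Gypsy-type LTR retrotransposons, several of which are active in follicle cells and can form virus-like particles there, were called higher in all 45 of the families tested of 54 in the counts, with a median log2 change of 5.12. Gypsy had 285, 207 and 268 CPM in sovEA42/KG00226, 1.49, 1.62 and 1.42 CPM in the sovEA42 heterozygotes and 1.23, 0.642, 1.17, 0.366 and 0.854 CPM in the KG00226 heterozygotes. The sterile libraries were close to each other and far above all 8 heterozygotes, with a log2 change of 7.80 ± 0.17 (SE, edgeR adjusted p = 5.17e-12). ZAM, a follicle cell element, rose by 5.87 ± 0.28 (SE, edgeR adjusted p = 1.21e-08) from 0.204 to 1.13 CPM in the heterozygotes to 52.5, 40.4 and 34.2 CPM. Gypsy2 rose by 5.67 ± 0.12 (SE, edgeR adjusted p = 5.17e-12) from 4.84 to 8.25 to 362, 283 and 318 CPM. The smallest changes in this class were those of TABOR, at 1.72, and NOMAD, at 1.88.

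Some Gypsy-type families were at different levels in the heterozygote classes themselves. Gypsy12 had 2033, 2788 and 1746 CPM in sovEA42/KG00226, 66.8, 68.9 and 126 CPM in the sovEA42 heterozygotes and 17.8, 10.9, 9.05, 5.12 and 9.39 CPM in the KG00226 heterozygotes. The classes formed separate tiers, with the sterile libraries highest, a change of 6.18 ± 0.29 (SE, edgeR adjusted p = 1.07e-08). The sovEA42 heterozygotes lay above the KG00226 heterozygotes by 3.05 ± 0.32 (SE, edgeR adjusted p = 0.000356). With KG00226/w1118 replicate 3 included, that difference between the heterozygotes was −1.22 (adjusted p = 0.852). GTWIN had the opposite order, with 41.3, 34.3 and 47.1 CPM in the sterile libraries, 0 in all 3 sovEA42 heterozygotes and 1.84, 2.44, 0.876, 0.732 and 1.14 CPM in the KG00226 heterozygotes. The sterile level was at least 178-fold higher than in the sovEA42 heterozygotes, and the log2 change against the KG00226 heterozygotes was 4.74 ± 0.31 (SE, edgeR adjusted p = 1.72e-06). MDG3 had 19.6, 23.5 and 26.9 CPM in the sterile libraries, 0, 0.162 and 0.284 CPM in the sovEA42 heterozygotes and 1.43, 1.797, 1.46, 2.20 and 2.28 CPM in the KG00226 heterozygotes. The heterozygote classes differed by −3.38 ± 0.54 (SE, edgeR adjusted p = 0.00748), a call that was lost with KG00226/w1118 replicate 3 included (−7.42, adjusted p = 0.378) and without sovEA42/w1118 replicate 2 (−3.44, adjusted p = 0.0884). BLOOD had 25.9, 13.2 and 20.4 CPM in the sterile libraries, 0.891, 0.324 and 0.569 CPM in the sovEA42 heterozygotes and 0 in all 5 KG00226 heterozygotes, at least 166-fold higher than the last class. TIRANT, named after its values were seen, had 57.4, 39.1 and 39.8 CPM in the sterile libraries against 30.3, 28.5 and 23.0 CPM in the sovEA42 heterozygotes, a log2 change of 0.70 ± 0.27 (SE, edgeR adjusted p = 0.0981) that did not pass. The KG00226 heterozygotes had 5.11, 6.16, 2.63, 2.56 and 2.56 CPM, and against them the change was 3.46 ± 0.27 (SE, edgeR adjusted p = 1.59e-06).

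**Figure D2:**
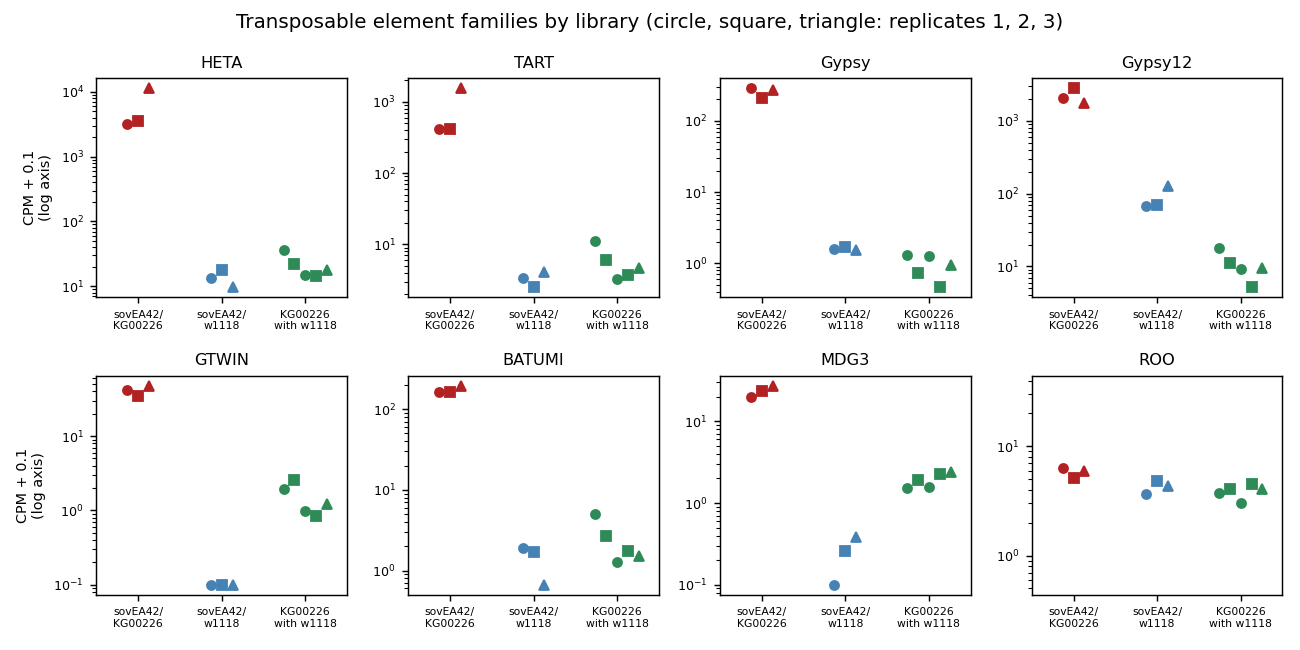
Level of 8 element families in each of the 11 libraries (CPM + 0.1, log axis; circle, square and triangle are replicates 1, 2 and 3). HETA, TART, Gypsy, Gypsy12, GTWIN, BATUMI and MDG3 lie higher in all 3 sovEA42/KG00226 libraries than in any heterozygote, Gypsy12, GTWIN and MDG3 also differ between the heterozygote classes, and ROO, which did not pass the test, spans 2.92 to 6.299 CPM over all libraries.

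The other classes of element contained both large changes and families that did not pass. Of 8 BEL-type LTR families 7 were higher: BATUMI rose by 6.55 ± 0.24 (SE, edgeR adjusted p = 1.56e-09), from 0.569 to 4.91 CPM in the heterozygotes to 164, 164 and 193 CPM, while ROO had a change of 0.48 ± 0.23 (SE, edgeR adjusted p = 0.172). All 5 Copia-type families were higher, Copia by 4.16 ± 0.24 (SE, edgeR adjusted p = 1.04e-07), from 0.854 to 3.98 CPM to 37.1, 26.9 and 42.5 CPM. ROO was the only LTR family tested that did not pass. Among non-LTR retrotransposons other than the telomeric ones, 18 of 21 tested families were higher (35 in the counts), with a median of 2.38. The I element, I_DM, known from hybrid dysgenesis, rose by 4.25 ± 0.17 (SE, edgeR adjusted p = 2.85e-09), from 3.56, 2.91 and 2.84 CPM in the sovEA42 heterozygotes and 1.64, 1.16, 1.75, 1.10 and 0.854 CPM in the KG00226 heterozygotes to 38.5, 41.3 and 34.7 CPM. The families BS, DOC and G5A_DM did not pass, with log2 changes of 0.65, 0.72 and 0.98. Of 12 DNA transposon families tested (36 in the counts), 9 were higher. TRANSIB1 rose by 7.18 ± 0.39 (SE, edgeR adjusted p = 4.77e-08), from 0 to 0.324 CPM in the heterozygotes to 38.5, 27.3 and 18.9 CPM, and HOBO by 1.58 ± 0.27 (SE, edgeR adjusted p = 0.000974). FB4_DM, PROTOP_B and DNAREP1_DM did not pass, at −0.14, 0.24 and 0.32. Copies of a family may share reads with other families, and how such reads were counted is not given in the sources used here.

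Genes of the eggshell were lower in sovEA42/KG00226. Of 21 chorion genes, 13 were lower and none higher, against 7.39% lower over all features, and the median log2 change was −3.46. Cp15, a chorion protein gene of the late stages of eggshell formation, had 25.2, 25.9 and 224 CPM in the sterile libraries, 3038, 2903 and 3785 CPM in the sovEA42 heterozygotes and 6913, 4996, 2762, 7016 and 7257 CPM in the KG00226 heterozygotes. All 3 sterile libraries lay below all 8 heterozygotes, with a log2 change of −5.54 ± 0.76 (SE, edgeR adjusted p = 0.000171), and replicate 3 lay above the other two. Cp36, an early chorion gene, had 11.9, 313 and 624.8 CPM in the sterile libraries against 2361 to 3120.0 and 1805 to 7915 CPM in the sovEA42 and KG00226 heterozygotes, and changed by −3.50 ± 0.86 (SE, edgeR adjusted p = 0.0108). Muc12Ea and CG13114 changed by −4.92 ± 0.53 (SE, edgeR adjusted p = 2.73e-05) and −5.04 ± 0.61 (SE, edgeR adjusted p = 6.85e-05). The sterile libraries differed from each other far more than the heterozygotes did: summed over the list, chorion genes had 97.3, 1294 and 5199 CPM in replicates 1, 2 and 3, 17491 to 19029.5 CPM in the sovEA42 heterozygotes and 21611 to 50374 CPM in the KG00226 heterozygotes. Cp18 did not pass although all 3 sterile libraries were lower than every heterozygote, since its levels were 4.90, 4.96 and 686 CPM (−3.13 ± 1.17 SE, edgeR adjusted p = 0.0752).

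The vitelline membrane genes, which follicle cells express before the chorion genes, changed less. Of the 12 in the counts, 10 were lower (83.3% against 7.39% of all features), with a median of −1.50. Against each heterozygote class separately 6 were lower, where 3.59% of all features were. Without overlap 6 lay lower, where 5.68% of all features did. Vm32E had 10.50, 35.7 and 10.4 CPM in the sterile libraries, 373, 314 and 245 CPM in the sovEA42 heterozygotes and 99.2, 119, 162, 183 and 174 CPM in the KG00226 heterozygotes, and fell by 3.31 on the log2 scale (SE 0.37, edgeR adjusted p = 3.97e-05). Vm26Ac, psd and ndl, the last encoding a protease of dorsal-ventral patterning, changed by −3.42 ± 0.50 (SE, edgeR adjusted p = 0.000287), −2.20 ± 0.29 (SE, edgeR adjusted p = 0.000136) and −1.74 ± 0.35 (SE, edgeR adjusted p = 0.00295). In each of the 4 the sterile and heterozygote libraries did not overlap. Vm26Aa changed by −1.17 ± 0.34 (SE, edgeR adjusted p = 0.0273), with levels of 3019, 1373 and 822 CPM that overlapped the KG00226 heterozygotes, at 2087 to 3515 CPM. The call was lost in 4 alternatives that each left out 1 library, among them sovEA42/KG00226 replicate 3 (−0.83, adjusted p = 0.0788). The eggshell genes fs(1)N and fs(1)M3, which the germline expresses, had changes of 0.06 ± 0.15 (SE, edgeR adjusted p = 0.827) and 0.01 ± 0.19 (SE, edgeR adjusted p = 0.983). The order of the sterile libraries was the reverse of that of the chorion genes, with a summed vitelline level of 7811, 4875 and 3082 CPM in replicates 1, 2 and 3, against 13912 to 19197 CPM in the sovEA42 heterozygotes and 7668 to 12847 CPM in the KG00226 heterozygotes.

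The yolk protein genes did not pass in the main comparison, but some did in other settings. Yp1 had 3226, 1779 and 870.5 CPM in the sterile libraries, 5483, 4297 and 3266 CPM in the sovEA42 heterozygotes and 3827, 4761, 3382, 1667 and 1868 CPM in the KG00226 heterozygotes, so that replicate 3 alone lay below every heterozygote (−0.91 ± 0.40 SE, edgeR adjusted p = 0.13). Yp2, Yp3 and the yolk receptor gene yl had changes of −1.13 ± 0.43 (SE, edgeR adjusted p = 0.0759), −1.12 ± 0.42 (SE, edgeR adjusted p = 0.0758) and −0.35 ± 0.17 (SE, edgeR adjusted p = 0.16). Yp1, Yp2 and Yp3 were called lower without sovEA42/KG00226 replicate 1 (−1.51, −1.77 and −1.93, adjusted p = 0.0299, 0.0178 and 0.00412) and on the spike-in scale. Yp2 and Yp3 were also called lower with no filter on low counts (adjusted p = 0.0293 and 0.0262) and with separate coefficients for the KG00226 crosses (0.0356 and 0.0475). None of 26 oocyte and maternal genes tested passed in either direction, with a median of −0.15, and on the spike-in scale all 26 were called lower. The localised oocyte mRNA osk had 872, 1083 and 1071 CPM in the sterile libraries and 994 to 1392 CPM in the heterozygotes.

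**Figure D3:**
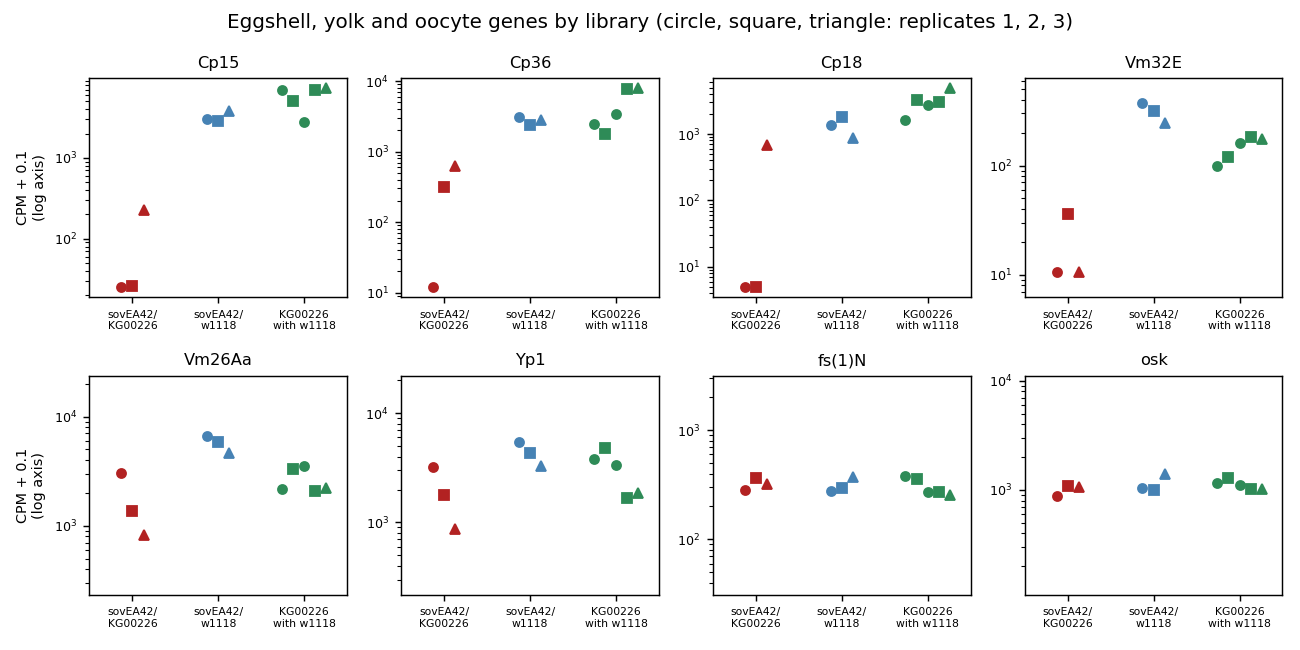
Level of 8 eggshell, yolk and oocyte genes in each of the 11 libraries (CPM + 0.1, log axis; circle, square and triangle are replicates 1, 2 and 3). Cp15, Cp36, Cp18 and Vm32E lie lower in all 3 sovEA42/KG00226 libraries than in any heterozygote, Vm26Aa and Yp1 overlap, and fs(1)N and osk, which did not pass, overlap as well.

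Genes of the follicle cells and ovarian soma moved in both directions, 3 higher and 5 lower of 18 tested, with a median of −0.45. The share that was higher, 16.7%, was near the 14.5% of all features, and the share that was lower was 27.8% against 7.39%. The follicle cell transcription factor gene tj had 86.8, 71.9 and 51.2 CPM in the sterile libraries, 216, 208 and 189 CPM in the sovEA42 heterozygotes and 244, 300.2, 239, 125 and 119 CPM in the KG00226 heterozygotes, all sterile libraries being lowest (−1.57 ± 0.29 SE, edgeR adjusted p = 0.00159). The other 4 that were lower were br, an ecdysone-induced transcription factor gene (−1.73 ± 0.29 SE, edgeR adjusted p = 0.000769), mirr (−1.56 ± 0.26 SE, edgeR adjusted p = 0.000873), the cadherin gene Cad74A (−1.89) and peb (−1.04). Those higher were the matrix protease gene Mmp2 (1.53 ± 0.26 SE, edgeR adjusted p = 0.000822), bab2 (2.23) and the adhesion gene Fas3 (1.06 ± 0.24 SE, edgeR adjusted p = 0.00624). Mmp2 was no longer called on the spike-in scale (0.0047, adjusted p = 0.99). Fas3 was at −0.47 on that scale and no longer called without sovEA42/KG00226 replicate 1 (0.61, adjusted p = 0.0608). Of 15 ecdysone pathway genes, 5 were lower (33.3% against 7.39% of all features), namely br, Hr4, Cyp18a1, Eip74EF and Eip75B, at −1.73, −1.21, −0.91, −0.86 and −0.76. One was higher: spok, a gene of ecdysone synthesis known from the larval prothoracic gland, had 3.50, 5.68 and 5.34 CPM in the sterile libraries and 0 in all 8 heterozygotes, at least 61.5-fold higher.

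Among early germline genes, 3 of 15 were higher and none lower, a share of 20% that is near the 14.5% of all features. The differentiation factor gene bam, which is transcribed in dividing cysts at the tip of the ovary and silent in stem cells, had 88.9, 82.6 and 107 CPM in the sterile libraries, 19.0, 13.6 and 11.1 CPM in the sovEA42 heterozygotes and 21.9, 18.7, 23.9, 38.1 and 46.4 CPM in the KG00226 heterozygotes. The sterile libraries lay above every heterozygote (2.17 ± 0.24 SE, edgeR adjusted p = 3.37e-05), and the call was lost on the spike-in scale (0.67, adjusted p = 0.061). Its partner gene bgcn rose from 0.285 to 1.67 to 16.8, 8.199 and 9.23 CPM (3.27 ± 0.38 SE, edgeR adjusted p = 5.43e-05), and stwl, a gene of germline stem cell maintenance, stood at 77.0, 77.5 and 86.4 against 46.9 to 56.3 CPM (0.71 ± 0.08 SE, edgeR adjusted p = 6.34e-05; −0.72 on the spike-in scale). Of 18 meiosis genes, 6 were higher (33.3% against 14.5% of all features), but 2 were higher and 11 lower on the spike-in scale and 1 was called with a count minimum of 30. They included sunn and ord, genes of sister chromatid cohesion, at 3.12 ± 0.50 (SE, edgeR adjusted p = 0.000626) and 2.58 ± 0.33 (SE, edgeR adjusted p = 0.000106), and mei-W68, the gene of the enzyme that makes meiotic breaks, at 2.20 ± 0.37 (SE, edgeR adjusted p = 0.000803), which was not called on the spike-in scale (0.71, adjusted p = 0.128). Levels of ord were 4.199, 6.22 and 4.13 CPM in the sterile libraries and 0.297 to 1.17 CPM in the heterozygotes.

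Of 35 piRNA pathway genes, 4 were higher and 3 lower, shares of 11.4% and 8.57% that are near those of all features (14.5% and 7.39%), with a median of 0.11. AGO3, one of the 3 Piwi-clade Argonautes, had 38.5, 51.0 and 30.4 CPM in the sterile libraries, 127, 129 and 123 CPM in the sovEA42 heterozygotes and 179.5, 147, 164, 167 and 192 CPM in the KG00226 heterozygotes. It was lowest in the 3 sterile libraries with no overlap (−1.85 ± 0.15 SE, edgeR adjusted p = 2.32e-06). The gene of the piRNA cluster transcription factor moon (−1.15 ± 0.25 SE, edgeR adjusted p = 0.00452) and arx, a gene of nuclear silencing (−0.70 ± 0.14 SE, edgeR adjusted p = 0.00293), were lower as well. Those higher were bam, which the list also holds, cuff, a gene of the complex that marks piRNA clusters (1.51 ± 0.27 SE, edgeR adjusted p = 0.00146; 0.11 and not called on the spike-in scale), BoYb (0.53 ± 0.10 SE, edgeR adjusted p = 0.0014; −0.85 on the spike-in scale) and krimp (0.44, a change smaller than the spike-in shift). The Argonaute genes piwi and aub did not pass, at 0.19 ± 0.14 (SE, edgeR adjusted p = 0.379) and 0.20 ± 0.16 (SE, edgeR adjusted p = 0.408). Of 24 heterochromatin genes stwl alone passed, and the gene of HP1a (FBgn0003607), a protein that binds heterochromatin, had 198, 202 and 204 CPM in the sterile libraries and 177 to 225 CPM in the heterozygotes. None of the 8 tested neighbours of sov passed.

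The 10 genes with the largest rises were absent or nearly absent from heterozygous ovaries. In the antisense gene asRNA:CR44181, in CG14606, in prom and in the potassium channel gene Shawl, all 8 heterozygote libraries had 0 counts. Their levels in the sterile libraries were 31.5, 11.7 and 18.0 CPM, 7.70, 5.05 and 8.50 CPM, 11.9, 6.49 and 2.91 CPM and 3.50, 9.19 and 2.67 CPM, at least 259-fold, 90.1-fold, 90.3-fold and 65.1-fold higher. The call for prom was lost with KG00226/w1118 replicate 3 included (adjusted p = 0.0553), and how strand was used in counting is not given in the sources used here, so asRNA:CR44181 may hold reads of its partner. The HMG-box gene Sox21b (FBgn0042630, 3L:14112405-14131324) had 31.5, 28.3 and 41.3 CPM in the sterile libraries and at most 0.285 CPM in any heterozygote (7.95 ± 0.36 SE, edgeR adjusted p = 8.42e-09). Gld2 (FBgn0038934, 3R:22211824-22217415), a cytoplasmic poly(A) polymerase gene known from the male germline, had 41.3, 49.9 and 92.3 CPM against 0 to 0.485 CPM (7.84 ± 0.37 SE, edgeR adjusted p = 1.23e-08). These are genes with a clear presence in 1 genotype and close to no reads in the other. SkpC (FBgn0026175, X:19816072-19816700), of a family of ubiquitin ligase subunits whose copies may share reads, had 146, 146 and 119 CPM against 0 to 1.71 CPM (7.89 ± 0.25 SE, edgeR adjusted p = 2.42e-10). GstE10, a glutathione transferase gene, had 37.8, 51.6 and 33.8 CPM against 0 to 1.42 CPM (7.51 ± 0.34 SE, edgeR adjusted p = 7.68e-09). The bHLH-PAS gene dysf had 27.3, 25.2 and 30.6 CPM against 0 in the sovEA42 heterozygotes, at least 121-fold higher, and 0.204 to 1.14 CPM in the KG00226 heterozygotes. The gene flip had 12.6, 13.9 and 12.1 CPM against 0 to 0.284 CPM and 0, at least 108-fold higher than in the KG00226 heterozygotes.

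The 10 largest falls included 3 of the chorion list, Cp15, CG13114 and Muc12Ea. CG13032 had 0 counts in all 3 sterile libraries and 6.04 to 13.9 CPM in the heterozygotes, at least 46.4-fold lower. Ilp7, an insulin-like peptide gene (FBgn0044046, X:3667621-3668845), had 0, 0.360 and 0.971 CPM in the sterile libraries, 22.9, 22.8 and 7.39 CPM in the sovEA42 heterozygotes and 61.5, 66.9, 25.1, 49.2 and 39.0 CPM in the KG00226 heterozygotes. No sterile library reached 1 CPM and no heterozygote was below 7 CPM (−5.86 ± 0.64 SE, edgeR adjusted p = 3.15e-05). The gene sosie, known for a membrane protein of the follicle epithelium, had 6.998, 4.33 and 1.21 CPM against 118 to 143 and 46.7 to 184 CPM (−4.96 ± 0.53 SE, edgeR adjusted p = 2.48e-05). CG12716, CG16956, CG31928 and CG31926 changed by −6.93 ± 0.96 (SE, edgeR adjusted p = 0.000185), −6.31 ± 0.84 (SE, edgeR adjusted p = 0.000137), −5.48 ± 0.47 (SE, edgeR adjusted p = 4.6e-06) and −5.30 ± 0.69 (SE, edgeR adjusted p = 0.000122). Of 14 sex determination genes 2 were higher and 1 lower, shares of 14.3% and 7.14% near those of all features. The gene fru, better known for its neuronal role in male courtship, was lower, at 2.80, 4.96 and 4.13 CPM against 10.2 to 16.8 CPM (−1.76 ± 0.22 SE, edgeR adjusted p = 8.27e-05). In the same list dsx and chinmo were called higher, at 1.72 ± 0.41 (SE, edgeR adjusted p = 0.00946) and 1.71 ± 0.46 (SE, edgeR adjusted p = 0.0171). Neither was called on the spike-in scale (0.09 and 0.44, adjusted p = 0.835 and 0.373). The call for dsx was lost without sovEA42/KG00226 replicate 1 (0.90, adjusted p = 0.0516), that for chinmo without replicate 2 (1.71, 0.0555) or 3 (1.52, 0.0765), without sovEA42/w1118 replicate 2 (1.498, 0.0626) or with KG00226/w1118 replicate 3 (1.47, 0.0624).

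Markers of cells that lie outside or around the egg chambers were higher in the sterile libraries. All 18 muscle genes tested of 22 listed were higher, against 14.5% of all features, with a median of 3.51. Mhc, the muscle myosin heavy chain gene, had 2339, 392 and 674 CPM against 51.2 to 65.8 and 25.0 to 72.6 CPM in the sovEA42 and KG00226 heterozygotes (4.49 ± 0.44 SE, edgeR adjusted p = 1.16e-05). The thoracic muscle actin genes Act79B and Act88F were near 0 throughout, at no more than 1.19 CPM in any of the 11 libraries. The summed muscle level was 12808, 2663 and 4119 CPM in the sterile libraries, 868 to 1082 CPM in the sovEA42 heterozygotes and 776 to 996 CPM in the KG00226 heterozygotes. Replicate 1, the shallowest library, was the highest by far, but the other two also lay above every heterozygote. Of 7 hemocyte genes tested of 9 listed, 5 were higher and 1, srp, was lower (−1.27 ± 0.20 SE, edgeR adjusted p = 0.000537). These shares were 71.4% and 14.3%, against 14.5% and 7.39% of all features. Hml, a blood cell clotting gene, had 135, 24.6 and 28.4 CPM in the sterile libraries and 0.569 to 3.27 CPM in the heterozygotes (4.90 ± 0.53 SE, edgeR adjusted p = 2.9e-05), and He was at 0 in all 11 libraries. Summed hemocyte levels were 2441, 554 and 755 CPM in the sterile libraries, 196 to 219 CPM in the sovEA42 heterozygotes and 256 to 344 CPM in the KG00226 heterozygotes.

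Some other lists also held genes that were higher, and the part of muscle cells and hemocytes in each was not tested. Of 15 heat shock genes tested, 8 were higher (53.3% against 14.5% of all features), and 5 without sovEA42/KG00226 replicate 1. Hsp70Ba, whose near-identical copies may share reads, had 1753, 87.6 and 107 CPM in the sterile libraries, 46.3, 4.69 and 3.41 CPM in the sovEA42 heterozygotes and 0.915 to 1.75 CPM in the KG00226 heterozygotes, with replicate 1 highest (7.03 ± 0.95 SE, edgeR adjusted p = 0.000151). Hsp23 had 121, 47.9 and 53.9 CPM against 3.13 to 10.98 CPM (3.61 ± 0.28 SE, edgeR adjusted p = 1.79e-06), while the chaperone gene Hsp83 did not pass (0.11 ± 0.16 SE, edgeR adjusted p = 0.672). On the spike-in scale 7 heat shock genes were higher and 7 lower. Of 5 oviduct and sperm storage genes tested, 2 were higher (40% against 14.5% of all features). They were abd-A and Abd-B (3.28 ± 0.44 SE, edgeR adjusted p = 0.000159 and 2.48 ± 0.61 SE, edgeR adjusted p = 0.0107). The other 3, Hr39, Oamb and Octbeta2R, did not pass. Changes in this list ran from −1.18 to 3.28, with a median of 0.02. Oamb was called lower without sovEA42/KG00226 replicate 1 (−2.27, edgeR adjusted p = 0.000499). Abd-B was not called without sovEA42/KG00226 replicate 1 (1.45, adjusted p = 0.0646). All 4 neuronal genes tested of 10 listed were called higher, against 14.5% of all features. The change of para was 4.78 ± 0.53 (SE, edgeR adjusted p = 3.37e-05). Those of Appl, elav and Syx1A were 1.26, 1.09 and 0.57, but −0.13, −0.38 and −0.87 on the spike-in scale. Appl and elav lost their calls without sovEA42/KG00226 replicate 1 (1.03 and 0.69, adjusted p = 0.0565 and 0.161), and elav also without any one of the sovEA42 heterozygote libraries (adjusted p = 0.0635 to 0.0713). None of 3 fat body genes tested passed. Of 8 immune genes 3 were higher (37.5% against 14.5% of all features). They were Dif (2.72 ± 0.32 SE, edgeR adjusted p = 6.01e-05), nec (2.64) and PGRP-LB (1.12, but −0.21 on the spike-in scale and 0.83, adjusted p = 0.0717, without sovEA42/KG00226 replicate 2). Of 13 apoptosis genes 2 were called higher, egr (1.32) and Dark (0.46), both below 0 on the spike-in scale (−0.20 and −0.96), with 15.4% of this list called against 14.5% of all features. Dark kept its direction but lost its call in 10 further alternatives, among them DESeq2 (0.43, adjusted p = 0.0542), no filter on low counts (0.40, 0.071) and leaving out sovEA42/KG00226 replicate 1 (0.37, 0.139).

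The remaining lists had few calls. Of 7 basement membrane genes, which ovarian soma, hemocytes and fat body express, the collagen genes vkg and Col4a1 were lower (−1.60 ± 0.48 SE, edgeR adjusted p = 0.0322 and −1.31 ± 0.41 SE, edgeR adjusted p = 0.0369), calls that were lost without sovEA42/KG00226 replicate 2 (−1.47 and −1.15, adjusted p = 0.0972 and 0.116) or 3 (−1.27 and −1.05, 0.114 and 0.132), and without sovEA42/w1118 replicate 2 (−1.59 and −1.31, 0.0571 and 0.0648). The Col4a1 call was lost in 4 further alternatives (adjusted p = 0.0504 to 0.0579). Of 87 ribosomal protein genes tested, 2 were higher, 2.30% against 14.5% of all features. Both were second copies of a ribosomal protein gene, RpS10a and RpS19b, and neither was called with a count minimum of 30. RpS10a had 16.1, 5.95 and 7.53 CPM against 0 to 0.818 CPM (5.05 ± 0.60 SE, edgeR adjusted p = 5.7e-05). RpS19b had 9.10, 6.85 and 7.04 CPM against 0 to 1.43 CPM (3.23 ± 0.42 SE, edgeR adjusted p = 0.000126). Another 6 of the 87 were lower, 6.90% against 7.39% of all features. That number was 0 without sovEA42/KG00226 replicate 3, 18 with DESeq2 and 85 on the spike-in scale. Of 57 oxidative phosphorylation genes none was higher and 7 were lower (12.3% against 7.39% of all features). Without sovEA42/KG00226 replicate 3 only 1 of them was called lower, and on the spike-in scale all 57 were. Of 111 replication-dependent histone genes listed, 1 was tested and was higher, His2B:CG33868 (2.94 ± 0.62 SE, edgeR adjusted p = 0.00411), not called with a count minimum of 30. None of the 2 testis, 1 gut and 1 tracheal genes tested passed. By chromosome arm, 16.4% of the 1353 X-linked genes tested were higher and 6.87% lower, and on the small, heterochromatin-rich chromosome 4, 11 of 67 genes were higher (16.4%) and 14 lower (20.9%). The shares of all features were 14.5% and 7.39%.

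**Figure D4:**
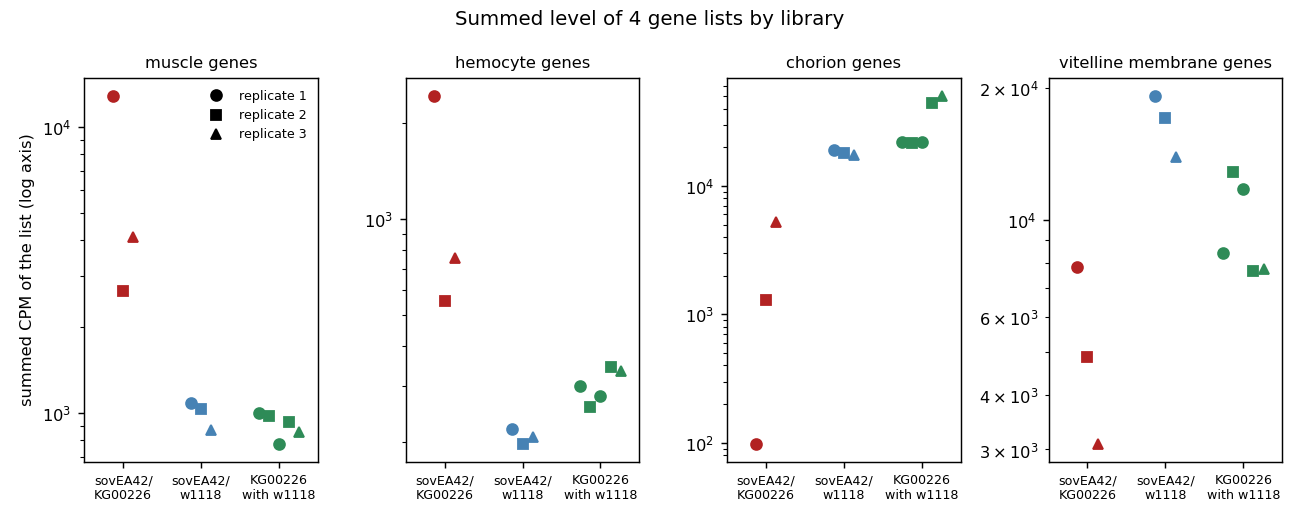
Summed level of muscle, hemocyte, chorion and vitelline membrane genes in each of the 11 libraries (CPM, log axis; circle, square and triangle are replicates 1, 2 and 3). Muscle sums are 2663 to 12808 CPM in sovEA42/KG00226 and 776 to 1082 CPM in the heterozygotes, and the sterile libraries order chorion and vitelline membrane sums in opposite ways.

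The genotype was then set against 3 allele pairs that share one of its alleles, in a fit of 20 libraries and 7950 features: sovEA42/sov2 (sterile), Dfsov/KG00226 (sterile) and KG00226/KG00226 (fertile), with 3 libraries each. The sov2 chromosome carries sov[2] with the markers y[1], cv[1], v[1] and f[1], and the deficiency Df(1)sov lies on a w[1118] chromosome. These comparisons share the 3 sovEA42/KG00226 libraries. Against sovEA42/sov2, 61 features (0.767%) were higher and 59 (0.742%) lower. Against Dfsov/KG00226, 392 (4.93%) were higher and 213 (2.68%) lower, a count that ran from 155 to 1622 in both directions when single libraries were left out. Against KG00226/KG00226, 909 (11.4%) were higher and 448 (5.64%) lower. With only the libraries of the 2 genotypes in the fit, 11, 111 and 706 features were called in the 3 comparisons. In this fit sov had 172, 176 and 219 CPM in sovEA42/KG00226, 304, 267 and 237 CPM in sovEA42/sov2, 79.1, 79.3 and 87.9 CPM in Dfsov/KG00226 and 166, 129 and 124 CPM in KG00226/KG00226. It was lower than in sovEA42/sov2 (−0.51 ± 0.12 SE, edgeR adjusted p = 0.0373) and higher than over the deficiency (1.20 ± 0.12 SE, edgeR adjusted p = 7.04e-06). Against KG00226/KG00226 it was higher as well (0.44 ± 0.12 SE, edgeR adjusted p = 0.0175). Of 4 chromosome marker genes tested, w (−3.63 ± 0.46 SE, edgeR adjusted p = 0.000192) and f were lower than in sovEA42/sov2. Neither y nor cv passed there (1.64 and 0.42, edgeR adjusted p = 0.297 and 0.384).

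Element families separated the allele pairs by family. Against sovEA42/sov2, 22 of 106 families tested were higher and none lower, against 0.767% and 0.742% of all features. Of these 22, 15 were among 46 Gypsy-type families. GTWIN had 42.0, 35.0 and 45.9 CPM in sovEA42/KG00226, 8.09, 11.8 and 6.48 CPM in sovEA42/sov2, 11.2, 5.37 and 7.38 CPM in Dfsov/KG00226 and 3.88, 1.98 and 2.57 CPM in KG00226/KG00226. It was highest in sovEA42/KG00226 against each of the others, by 2.22 ± 0.34 (SE, edgeR adjusted p = 0.00173), 2.36 ± 0.33 (SE, edgeR adjusted p = 0.000482) and 3.83 ± 0.38 (SE, edgeR adjusted p = 3.44e-06). Gypsy had a different order, at 289.9, 212 and 261 CPM in sovEA42/KG00226, 379, 303 and 427 CPM in sovEA42/sov2, 69.5, 51.8 and 41.4 CPM in Dfsov/KG00226 and 4.79, 5.09 and 1.72 CPM in KG00226/KG00226. The difference between the sovEA42 pairs did not pass (−0.55 ± 0.19 SE, edgeR adjusted p = 0.198), while that from Dfsov/KG00226 did (2.24 ± 0.20 SE, edgeR adjusted p = 1.81e-06). Against Dfsov/KG00226, 19 of the 106 families were higher, where 4.93% of all features were. They included TRANSIB1 (3.66 ± 0.60 SE, edgeR adjusted p = 0.00144) and TIRANT (3.15 ± 0.31 SE, edgeR adjusted p = 6.07e-06). There 2 BEL-type families were lower, BEL (42.0, 48.2 and 46.8 CPM against 534, 343 and 525 CPM, −3.34 ± 0.28 (SE, edgeR adjusted p = 8.35e-07)) and BATUMI (−1.22). No telomeric family passed against either sterile genotype: HETA had 3251, 3573 and 11040.0 CPM in sovEA42/KG00226, 2569, 990.0 and 3079 CPM in sovEA42/sov2 (1.43 ± 0.48 SE, edgeR adjusted p = 0.191) and 6775, 11010.0 and 13340.0 CPM in Dfsov/KG00226 (−0.80 ± 0.47 SE, edgeR adjusted p = 0.282). In the fertile KG00226 homozygote HETA stood at 2703, 1536 and 1139 CPM, well above the heterozygotes, and the sovEA42/KG00226 libraries were higher still (1.73 ± 0.48 SE, edgeR adjusted p = 0.0184). Against this homozygote 82 of 106 families were higher, where 11.4% of all features were, with a median of 2.40 against −0.0005.

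Eggshell genes differed between the sterile genotypes. Cp15 had 25.6, 26.5 and 217.8 CPM in sovEA42/KG00226 and 41.4, 17.7 and 247 CPM in sovEA42/sov2 (−0.17 ± 0.77 SE, edgeR adjusted p = 0.974), but 2743, 4812 and 3843 CPM in the sterile Dfsov/KG00226 (−5.38 ± 0.91 SE, edgeR adjusted p = 0.00176) and 2779, 5742 and 8511 CPM in the fertile KG00226/KG00226 (−5.95 ± 0.93 SE, edgeR adjusted p = 0.000278). The sovEA42 pairs were low and both other genotypes high, without overlap. Over the lists, 8 of 21 chorion and 7 of 12 vitelline membrane genes were lower than in Dfsov/KG00226, against 2.68% of all features, and 2 chorion genes were higher than in sovEA42/sov2. AGO3, at 39.2, 52.1 and 29.6 CPM in sovEA42/KG00226, was lower still in Dfsov/KG00226, at 21.7, 15.9 and 12.7 CPM (1.33 ± 0.27 SE, edgeR adjusted p = 0.00665), and stood at 41.2, 100.9 and 87.3 CPM in sovEA42/sov2 (−0.89 ± 0.25 SE, edgeR adjusted p = 0.0885) and 127, 133 and 124 CPM in KG00226/KG00226 (−1.64 ± 0.25 SE, edgeR adjusted p = 0.000202). No muscle or hemocyte gene passed against sovEA42/sov2. Against Dfsov/KG00226, 3 of 18 muscle genes were higher, where 4.93% of all features were, with a median of 1.59. Of 8 hemocyte genes 1 was higher and 1 lower there, with a median of 1.70. Against KG00226/KG00226, 16 of 18 muscle genes were higher, where 11.4% of all features were. Mhc had 62.9, 48.1 and 69.8 CPM in KG00226/KG00226.

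Several genes with the largest rises over the heterozygotes differed between the other sterile genotypes. Sox21b had 32.0, 28.9 and 40.2 CPM in sovEA42/KG00226 and 39.7, 33.7 and 33.7 CPM in Dfsov/KG00226 (−0.08 ± 0.25 SE, edgeR adjusted p = 0.867), but 0, 0.562 and 0.432 CPM in sovEA42/sov2 (6.58 ± 0.43 SE, edgeR adjusted p = 4.15e-08) and 1.60, 1.13 and 0.858 CPM in KG00226/KG00226 (4.76 ± 0.36 SE, edgeR adjusted p = 5.08e-08). Gld2 followed the same order, with 42.0, 51.0 and 89.8 CPM, 58.5, 112 and 148 CPM, 2.21, 3.37 and 0.865 CPM and 0.228, 0 and 0 CPM in the same sequence of genotypes, and differed from sovEA42/sov2 by 4.89 ± 0.45 (SE, edgeR adjusted p = 5.49e-06). Both genes were thus high where KG00226 was paired with sovEA42 or the deficiency. SkpC went the other way: it had 148, 149 and 116 CPM in sovEA42/KG00226 and 120.1, 37.7 and 65.5 CPM in sovEA42/sov2 (0.88 ± 0.30 SE, edgeR adjusted p = 0.198), against 3.58, 1.47 and 1.83 CPM in Dfsov/KG00226 (5.97 ± 0.41 SE, edgeR adjusted p = 5.06e-08) and 0.228, 0.283 and 0 CPM in KG00226/KG00226 (9.42 ± 0.61 SE, edgeR adjusted p = 5.23e-09). Dscam4, a cell adhesion gene, had 17.8, 21.7 and 21.3 CPM in sovEA42/KG00226, 11.3, 16.0 and 9.08 CPM in sovEA42/sov2, 0.239, 0.244 and 0.0794 CPM in Dfsov/KG00226 (6.91 ± 0.41 SE, edgeR adjusted p = 5.9e-09) and 0.228, 0 and 0 CPM in KG00226/KG00226 (7.51 ± 0.49 SE, edgeR adjusted p = 5.23e-09). The sovEA42 and KG00226 heterozygotes also had reads of Dscam4, with means of 35.4 and 22.4 CPM, so it was low in 1 sterile and 1 fertile genotype.

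**Figure D5:**
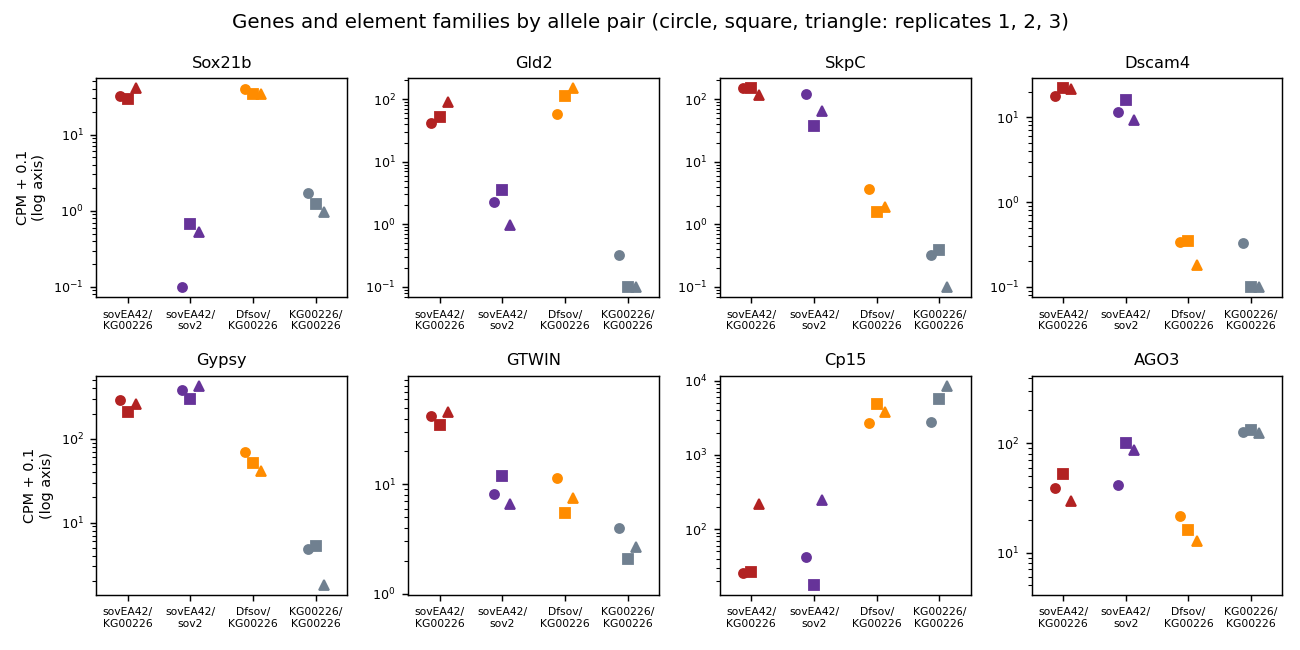
Level of 6 genes and 2 element families in the 3 libraries of each of 4 allele pairs (CPM + 0.1, log axis; circle, square and triangle are replicates 1, 2 and 3). Sox21b and Gld2 are high in sovEA42/KG00226 and Dfsov/KG00226, SkpC and Dscam4 in sovEA42/KG00226 and sovEA42/sov2, GTWIN is highest in sovEA42/KG00226, and Cp15 is low in both sovEA42 pairs.

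The other genes with large differences between allele pairs were below 1 CPM in every library of one of the genotypes compared. Against sovEA42/sov2, inaD had 6.41, 10.0 and 14.2 CPM against 0, 0 and 0.432 CPM (5.82 ± 0.83 SE, edgeR adjusted p = 0.00102) and asRNA:CR44181 32.0, 11.96 and 17.5 CPM against 0.245, 0 and 0 CPM (7.53 ± 1.54 SE, edgeR adjusted p = 0.038), the latter not called in 8 of the alternatives. CG17778 was lower, at 0.712, 0.460 and 0.709 CPM against 32.9, 16.9 and 11.2 CPM (−5.10 ± 0.56 SE, edgeR adjusted p = 6.84e-05). So were f (−4.47 ± 0.73 SE, edgeR adjusted p = 0.0021), whose mutant allele f[1] lies on the sov2 chromosome, and asRNA:CR45600 (−4.54 ± 0.77 SE, edgeR adjusted p = 0.00297). nAChRalpha2 was at 0 against 8.09, 4.50 and 5.84 CPM, at least 33.8-fold lower, but its call was lost with DESeq2 (adjusted p = 0.766) and without sovEA42/KG00226 replicate 2 or 3 or sovEA42/sov2 replicate 1 (0.0519 to 0.0761). With only the 2 genotypes in the fit, inaD, f, asRNA:CR45600 and nAChRalpha2 were not called (adjusted p = 0.0686, 0.13, 0.129 and 0.0953). Against Dfsov/KG00226, CR45458 had 9.97, 21.2 and 11.3 CPM against 0, at least 98.6-fold higher, and prom 12.1, 6.62 and 2.84 CPM against 0.239, 0 and 0 CPM (6.47 ± 1.18 SE, edgeR adjusted p = 0.011), a call lost with DESeq2 (adjusted p = 0.145) and without Dfsov/KG00226 replicate 2 (0.055) or 3 (0.0726). The cytochrome P450 gene Cyp4p2 was at 0 against 16.0, 18.3 and 25.6 CPM, at least 110-fold lower, and CG8160 at 0 against 3.11, 10.2 and 8.89 CPM, at least 40.8-fold lower. CG16956 and CG12716 were lower than in Dfsov/KG00226 (−6.57 ± 0.91 SE, edgeR adjusted p = 0.000272 and −5.93 ± 1.00 SE, edgeR adjusted p = 0.00174) and than in KG00226/KG00226 (−6.25 ± 0.94 SE, edgeR adjusted p = 0.000187 and −6.38 ± 0.98 SE, edgeR adjusted p = 0.000245). Against KG00226/KG00226, verm, a chitin-binding protein gene, had 17.1, 16.8 and 24.6 CPM against 0, at least 74.2-fold higher. The blood cell gene PPO2 had 54.8, 3.68 and 5.44 CPM against 0, at least 81.1-fold higher and not called with only the 2 genotypes in the fit (adjusted p = 0.0652), with most of its reads in replicate 1, the library with the most muscle and hemocyte counts.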

How the data were processed

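PolyA RNA of 11 ovary libraries, and of 9 libraries of related allele pairs, was analysed from whole-number counts of reads per gene, element family and ERCC spike-in, deposited by the authors without normalisation. Per the series text and labels, 200 ng of total RNA with 10 pg of spike-in went into each stranded library, and 50 bp reads were mapped to genome release 6.21. CASAVA 1.8.2, HISAT2 2.0.5 and HTSeq 0.7.2 are named, per the submitters' processing notes; the strand and multiple-mapping settings are not given in the sources used here. The 5 counting summaries (12.6% to 27.1% of the reads in these 11 libraries) were left out. Symbols came from a release 6 annotation (BDGP6), which held 17366 of 17493 genes.

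Counts were tested with edgeR 4.0.16 in R 4.3.3 (quasi-likelihood F test, TMM, filterByExpr by class with a count minimum of 10), adjusted over all features and called under 0.05 with no fold minimum; the code was tested on simulated data. DESeq2 1.42.0, other scalings and filters, left-out libraries, an ERCC pool covariate and a replicate block were alternatives. Folds against a group at 0 are lower bounds against 3 counts over the group. Members and gene lists were chosen with earlier results of these data known. A rule for names took sov, the 10 genes with the largest rise and fall and the 5 such element families. Those genes and families had to pass against both heterozygote classes without overlap at 5 CPM or more. The rule also took the 4 largest each way against the other allele pairs (same conditions). From each list it took up to 4 members by adjusted p (lists of up to 12 in full). Not every member taken by the rule is given with a value in the text. Other names were chosen after their values were seen.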

Additional observations from a re-analysis of the deposited data

Results flagged for a closer look

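In 6 of 132 named genes examined, 1 of the 5 KG00226 heterozygote libraries stood far from the other 4 by Dixon's test. Chance passes this test in about 1 in 20 groups, a share close to that found. GstE10 (0.204 CPM), NimC1 (0.366 CPM), Syx1A (63.4 CPM) and apolpp (93.8 CPM) were highest in 1 library. Muc12Ea (187 CPM) and PGRP-LB (3.66 CPM) were lowest in 1 library. The log2 change of sovEA42/KG00226 differed with the heterozygote it was set against, which is the difference between the heterozygotes themselves, in 5 of 136 named features: GTWIN (larger by 5.93 against the sovEA42 heterozygotes), y (5.33), MDG3 (3.38), crq (0.999) and Gypsy12 (−3.05). The GTWIN difference between the heterozygotes was no longer called with the ERCC pool as covariate (adjusted p = 0.0633), without any 1 of the 3 sovEA42 heterozygote libraries (0.0939 to 0.195) or without KG00226/w1118 replicate 1 (0.0741), and on a lower bound its level was at least 6.12-fold higher in the KG00226 heterozygotes. The phagocytic receptor gene crq stood at 87.0 to 96.2 CPM in the sovEA42 heterozygotes and 164 to 206 CPM in the KG00226 heterozygotes. KG00226/w1118 replicate 3, used in no main comparison, had 0.451% of its counts in elements, against 0.0379% to 0.0382% in the other two libraries of its genotype.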

How the results depend on the processing

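Of 15 same-numbered pairs of libraries, 3 had deviations with a correlation over 0.1 (range −0.173 to 0.370). With at most 3 libraries per group, such correlations cannot show whether the numbers mark a shared day, and the labels do not say. A fit with a replicate block called 1704 features against the mean of the heterozygotes, 1281 and 1537 against the sovEA42 and KG00226 heterozygotes, 53 between the heterozygotes, and 111, 606 and 1397 against sovEA42/sov2, Dfsov/KG00226 and KG00226/KG00226. With the block Yp1, Yp2 and Yp3 were called lower against the mean (−0.98, −1.25 and −1.26, adjusted p = 0.0335, 0.0232 and 0.0171), and GTWIN between the heterozygotes and nAChRalpha2 against sovEA42/sov2 were not called (adjusted p = 0.0706 and 0.0767). Leaving out 1 library at a time gave 1390 to 1802 (against 1673), 780 to 1436 (1235), 1296 to 1689 (1528), 29 to 113 (55), 65 to 236 (120), 155 to 1622 (605) and 847 to 1630 (1357) in the same order. The 113 between the heterozygotes came without sovEA42/KG00226 replicate 1, and 34 and 29 without sovEA42/w1118 replicates 1 and 2, the last also giving the 780. Against sovEA42/sov2, 72 came without sovEA42/KG00226 replicate 3, and 65 and 236 without sovEA42/sov2 replicates 1 and 3. Against Dfsov/KG00226, 286 and 1622 came without sovEA42/KG00226 replicates 1 and 3, and 168 and 155 without Dfsov/KG00226 replicates 2 and 3; against KG00226/KG00226, 847 came without its replicate 2. DESeq2 called 1800 features against the mean of the heterozygotes, 142 between the heterozygotes and 182 against sovEA42/sov2, and separate coefficients for the KG00226 crosses gave 2017 and 89 for the first pair of these. Fits of only the 2 groups compared called 11, 111 and 706 against the 3 allele pairs, and the ERCC pool as covariate gave 904 against KG00226/KG00226. With KG00226/w1118 replicate 3 included, 1641 features were called against the mean and the Gypsy12 difference between the heterozygotes reversed to −1.22; with no filter 2168 and with a count minimum of 30, 1195.

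Spike-in scaling called 7084 features against the mean (367 higher, 6717 lower), 7281 against the KG00226 heterozygotes, 6907 between the heterozygotes, 343 against Dfsov/KG00226 and 6989 against KG00226/KG00226. It reversed the log2 change of 26 named genes: sov −1.15, BoYb −0.85, stwl −0.72, egr −0.20, Dark −0.96, puc −1.20, Xrp1 −0.95, PGRP-LB −0.21, Rel −1.20, cv −1.15, aub −1.12, vas −1.36, Fas3 −0.47, crq −1.25, LanB1 −1.25, SPARC −0.90, trol −0.89, apolpp −1.35, FASN1 −1.05, Lip4 −1.31, Appl −0.13, elav −0.38, Syx1A −0.87, Hr39 −1.43, bol −1.15 and Coq7 −1.18. By its construction it moves every gene of a library by the same factor; why the spike-in shares differ was not tested.

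The log2 element share ran from 4.61 to 5.22 with 1 library left out, and per spike-in count from 2.85 to 3.76. Against the sovEA42 heterozygotes alone these were 4.82 and 3.74 (exact permutation p = 0.1, the smallest possible), and within ERCC pools 78A and 78B, an alternative chosen after seeing the data, 4.59 and 5.23 for the share and 3.79 and 2.82 per spike-in count (exact permutation p = 0.2 and 0.0667, the smallest possible). The sov difference of 0.32 ran from 0.19 to 0.39 with 1 library left out, passing without sovEA42/w1118 replicate 2 or 3 (0.35 in each, exact permutation p = 0.025); it was 0.34 with KG00226/w1118 replicate 3 (p = 0.0318), 0.44 against the KG00226 heterozygotes alone (p = 0.0179) and −1.34 per spike-in count (p = 0.00606), all by exact permutation. The cause of these changes was not tested. Depth limits genes near 0 most, since sovEA42/KG00226 replicate 1 held 1400954 gene counts.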
